A study of Mus musculus with 183 samples.

Results

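The comparison asked how steady-state RNA in an Aven-/- mouse embryonic stem cell (mESC) clone differed from that in an Aven-intact clone before Cre was activated to cut Skiv2l. Its members were the 6 day 0 mock libraries of the count table, 3 of clone 7E and 3 of clone 5F, out of 47 libraries in that table and 183 samples in the series. All libraries came from male 129 x C57BL/6 mESCs grown in serum with LIF and mock-treated with DMSO for 6 hr in place of the transcription inhibitor used for the decay courses. Total RNA was depleted of rRNA and sequenced as single-end reads without strand, after ERCC spike-in RNA had been added with the lysis buffer. Of 53380 genes in the table, 16299 passed a filter on low counts and were tested.

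Clone 5F was labelled Rosa26Cre-ERT2/- Skiv2lfl/fl. Clone 7E was labelled Rosa26Cre-ERT2/BirA-V6 and Aven-/-, with 3xFLAG-Avi on both Skiv2l alleles, and its loxP sites at Skiv2l were given by the study's methods and by the labels of other libraries of the clone. Both clones thus carried Cre-ERT2 and floxed Skiv2l, and at day 0 neither had received 4-hydroxytamoxifen (4OHT), which activates this Cre. The 6 mock libraries of day 4, set beside them below, came from the same clones after 4 days of 4OHT. The clones differed in Aven, in the N-terminal tag on SKIV2L, in the biotin ligase BirA and in their history of cloning, because 7E descended from a tagged Aven-/- clone and 5F did not. With 1 clone per genotype, the effect of Aven cannot be told apart from the other differences between the clones. The replicates were technical repeats of each clone, so every p-value measures only the spread between these libraries.

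AVEN was first described as an inhibitor of apoptosis, and in the setting of these data it is a partner of the cytoplasmic SKI complex. SKIV2L is the helicase of that complex, TTC37 its scaffold and WDR61 its WD-repeat subunit, and the complex feeds RNA into the exosome for decay from the 3′ end, also from ribosomes that have stalled. Steady-state RNA reflects both synthesis and decay, so a difference in level between clones does not say which of them differed.

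The target sites of the edits are shown as they match the reference genome. The edited alleles of the clones themselves were not read from these data. The guides below have the protospacer adjacent motif in capitals, and all positions are GRCm38. The first Aven guide matched coding exon 3 at chr2:112625181-112625200 on the plus strand, and the other matched exon 6 past the coding end at chr2:112630912-112630931 on the plus strand. Between the predicted cuts lay 5731 nt of the reference that held exons 4 and 5 whole and 574 of 1026 coding nt. The Skiv2l guides matched the minus strand in intron 10 at chr17:34846312-34846331 and in intron 17 at chr17:34844195-34844214. The loxP sites placed there flank exons 11 to 17, which hold 907 of 3732 coding nt. The pair of TALEN half-sites used for the tag lay in exon 1, one in the UTR at chr17:34850163-34850180 on the minus strand and one in coding sequence at chr17:34850129-34850146 on the plus strand.
Aven exon 3: gctgaggagaaagaatgggaTGG
Aven exon 6: agagtgcctgaagcaaatgcTGG
Skiv2l intron 10: gacctgggctaacttaggaaAGG
Skiv2l intron 17: tctccccttaaccttaaatgGGG
Skiv2l TALEN ELD: gctcgggagctgccgcgg
Skiv2l TALEN KKR: ctcaccgagtcgctccgt

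Aven RNA separated the clones as their labels state. Aven (ENSMUSG00000003604, chromosome 2, 112492964 to 112634573) had 1026, 1036 and 1022 normalized counts in the 5F libraries and 58.1, 88.3 and 59.7 in the 7E libraries. The highest 7E library lay far under the lowest 5F library, and the log2 difference was -3.90 ± 0.10 (SE; edgeR quasi-likelihood test, Benjamini-Hochberg adjusted p = 3.30e-19). The reads left in 7E came to 202 against 3205 in 5F, or 6.70% of the 5F level after scaling (95% exact interval 5.78% to 7.72%, counting error only). The exons between the cuts make up 12.9% of the exonic length of Aven, and gene-level counts do not tell where in the gene the remaining reads fell.

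Skiv2l was also lower in 7E, before Cre was activated in either clone. It had 4242, 4235 and 4308 normalized counts in 5F and 994.5, 1065 and 927 in 7E, a log2 difference of -2.10 ± 0.050 (SE; edgeR quasi-likelihood test, adjusted p = 7.46e-20), or 4.28-fold. No 7E library came near a 5F library. In the authors' RNA-seq of other tagged, Aven-intact lines Skiv2l was at 11.9 RPKM in the XRN1-tagged, 7.10 in the SKIV2L-tagged and 13.7 in the MTR4-tagged line. On a per-length log2 scale centred on all other genes, Skiv2l in 5F stood 1.54 to 2.47 above these lines and in 7E -0.57 to 0.37 from them. Those values are the authors' own, 1 per line with no spread and normalized apart from the counts, so they place the clones without a test. The SKIV2L-tagged line has 4 libraries in the series, 1 of them labelled with the genotype of 5F.

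Of the other SKI complex partners, Ttc37 alone was called lower, at 4892, 4562 and 5017 normalized counts in 5F and 4143, 4005 and 4079.6 in 7E (log2 -0.24 ± 0.043, edgeR adjusted p = 7.16e-05). Wdr61 (log2 -0.07, adjusted p = 0.263), Hbs1l (-0.08, 0.154), whose gene also encodes the SKI7-like protein, and Focad (0.09, 0.232) did not pass the edgeR test. With the replicate number as a block, Wdr61 (edgeR adjusted p = 0.0347) and Hbs1l (0.0142) passed it as well, and so they did when libraries were scaled to ERCC RNA (log2 -0.232 and -0.241, edgeR adjusted p = 0.000667 and 0.000354). Focad, a SKI-stabilizing protein, had a log2 difference of -0.078 under ERCC scaling.

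Genes next to the edited loci were examined because edits can reach beyond their target. Nelfe, a subunit of negative elongation factor that lies head to head with Skiv2l, had 1425, 1463 and 1536 normalized counts in 5F and 864, 939 and 826 in 7E (log2 -0.75 ± 0.058, edgeR adjusted p = 1.89e-10). The 3 clone 7E libraries lay below all 5F libraries. In the authors' RNA-seq Nelfe was at 27.2 RPKM in the SKIV2L-tagged, 41.2 in the XRN1-tagged and 45.2 in the MTR4-tagged line. The limits given above for Skiv2l in these lines hold here too, and the part of the tag was not tested. Dxo, a decapping exonuclease gene at the other end of Skiv2l, was also lower (log2 -0.58, edgeR adjusted p = 2.40e-06), and since its annotated end overlaps that of Skiv2l by a few bases, unstranded reads there cannot be told apart. Ryr3, which overlaps the end of Aven on the opposite strand, had 54.5, 37.9 and 48.1 normalized counts in 5F and 15.3, 9 and 9.4 in 7E, and the same limit holds for it. Further out, Emc7 was lower (log2 -0.24, edgeR adjusted p = 0.00397), and Grem1, at under 40 normalized counts, was called (-0.73, adjusted p = 0.0323) but not by the DESeq2 Wald test (adjusted p = 0.106). Katnbl1 (-0.02), Stk19 (-0.10) and Ehmt2 (-0.10) did not pass the test, but each was lower under ERCC scaling (edgeR adjusted p = 0.0203, 0.0461 and 0.0007), and Ehmt2 also with the replicate block (0.000386).

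**Figure D1:**
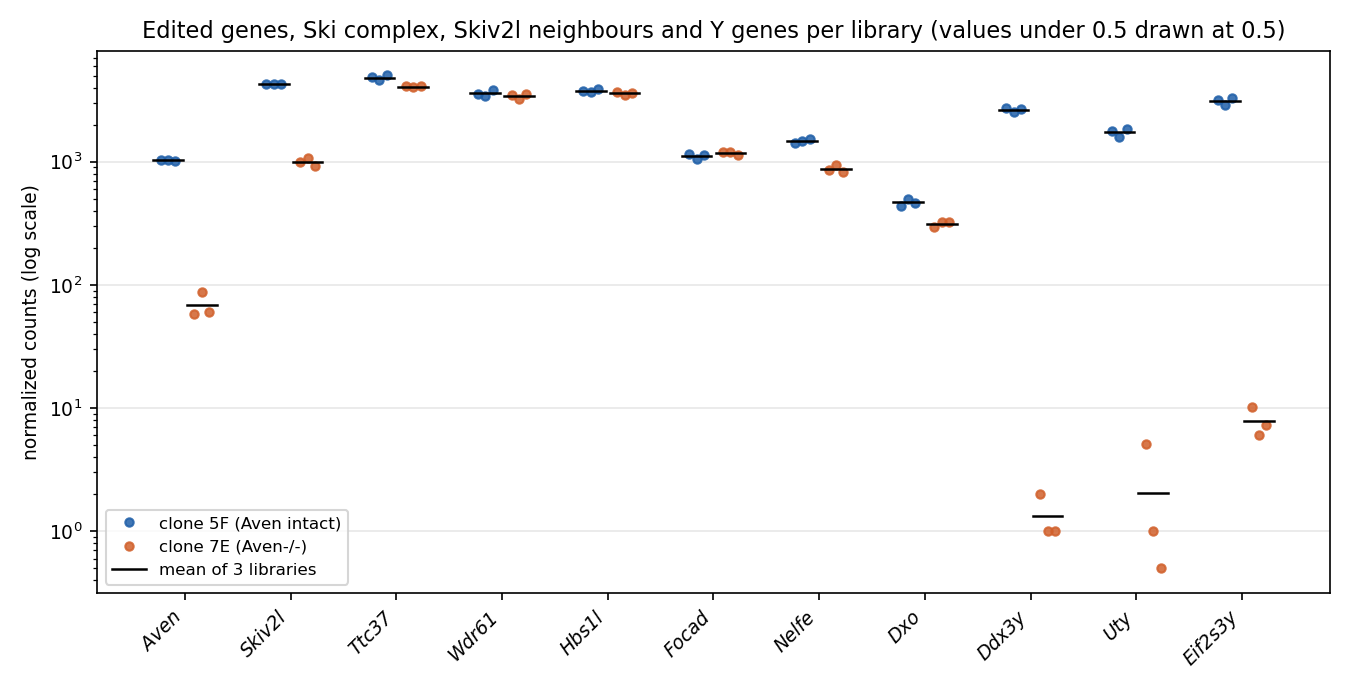
Normalized counts (log axis) of Aven, SKI complex genes, Skiv2l neighbours and Y-linked genes in each day 0 mock library, with a line at the mean of 3 libraries and values under 0.5 drawn at 0.5. Aven, Skiv2l, Nelfe, Dxo and the Y-linked genes separate 5F from 7E without overlap, while Wdr61, Hbs1l and Focad lie close together.

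Across the transcriptome the clones differed widely. Of 16299 genes tested, 6487 (39.8%) passed an adjusted p of 0.05, of which 3333 (20.4%) were higher and 3154 (19.4%) lower in 7E. A difference of at least 2-fold was seen for 786 of them (4.82%), with 242 (1.48%) higher and 544 (3.34%) lower. These large differences were concentrated at low levels, since the median mean level was 39.6 normalized counts for the higher and 38.2 for the lower genes. Among 13561 protein-coding genes 157 were at least 2-fold higher and 486 lower, whereas among 2738 other genes 85 were higher and 58 lower. When libraries were scaled to ERCC RNA the median of all genes moved by -0.17 on the log2 scale, and 1617 genes were called higher and 6292 lower.

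RNA per well was read from the spike-in. The spike-in was added per well with the lysis buffer, so the number of cells in a well enters the ratio and ERCC scaling. RNA per cell was not measured. The ratio of gene counts to ERCC counts was 349.6, 364.0 and 334.8 in 5F and 313.3, 323.0 and 323.0 in 7E. The ranges did not overlap, the mean was 349 ± 14.6 (SD, n = 3) in 5F and 320 ± 5.61 (SD, n = 3) in 7E, and 7E differed from 5F by -8.50% (exact two-sided permutation test, p = 0.1, the smallest that 3 against 3 libraries can give). Gene counts were 27836003 to 34114250 per library, ERCC counts 80457 to 94216 and the mitochondrial share 1.63% to 2.12%. The deepest library, 5F replicate 2, held 34114250 gene counts and the other 5 at most 29405146, and without it 6583 genes were called.

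Y-linked genes were almost undetected in the 7E libraries. Ddx3y, a DEAD-box RNA helicase, had 2716, 2529 and 2683 normalized counts in 5F and 2, 1 and 1 in 7E, where its 4 reads were 0.0518% of the 5F level (95% exact interval 0.0141% to 0.133%, counting error only). Uty, a histone demethylase homologue, had 1763, 1592 and 1833 in 5F and 5.1, 1 and 0 in 7E. Eif2s3y, a subunit of translation initiation factor 2, had 3184, 2897 and 3299 in 5F and 10.2, 6 and 7.3 in 7E. All 3 were at 10.2 normalized counts or fewer in every 7E library and above 1500 in every 5F library, and all 3 were called lower in 7E at day 4 as well. Scaled reads of Uty in 7E came to 0.119% of 5F (0.0437% to 0.259%) and those of Eif2s3y to 0.252% (0.160% to 0.379%). Kdm5d and Xist had too few reads to be tested. Gm47283, annotated on the Y chromosome, was higher in 7E (log2 1.36, edgeR adjusted p = 5.96e-11). It was the last by position of the Y genes with at least 100 normalized counts, which end at 90816464. Whether its reads came from the Y chromosome was not tested, so its level does not show Y expression in 7E.

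Chromosome 8 differed as a whole. Among its 610 genes with a mean of at least 100 normalized counts, the median log2 difference was 0.54 (interquartile range 0.40 to 0.68), or 1.46 on the linear scale, and 562 were called higher and 11 lower. The shift ran along the whole chromosome, as the medians of 20 of 20 consecutive windows of 30 genes (40 in the last) lay between 0.47 and 0.61. Per library the chromosome 8 median was -0.014, 0.006 and 0.009 in 5F and 0.515, 0.535 and 0.557 in 7E, relative to the 5F mean. Chromosome 8 genes took 4.21% to 4.255% of gene counts in 5F and 5.84% to 5.90% in 7E.

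A stretch of chromosome 1 had a similar shift. Its 4 adjoining windows from Lamc1 to Efcab2 (chr1:153218922-178484513) held 120 such genes with a median of 0.635 (interquartile range 0.425 to 0.797), 1.55 on the linear scale, and 107 were called higher and 8 lower. These windows were picked for their medians and bounded by fixed counts of genes, so their ends do not mark where the shift began. Among the first genes Lamc1 (-0.48), Npl (-0.31), Rgs16 (-0.35) and Glul (-0.27) were lower and Dhx9 (0.25) higher. The other 528 genes of chromosome 1 had a median of -0.005. The remaining autosomes had medians between -0.03 and 0.02, and the X chromosome -0.10 (358 genes, 38 higher and 141 lower). For reference, a ratio of 3 to 2 is 0.585 on the log2 scale. The copy number of these regions was not measured and its part was not tested.

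Which clone stood apart differed between the regions. Against the tagged Aven-intact lines, with all other genes centred at 0, chromosome 8 genes of 5F lay at medians of -0.458 to -0.434 and those of 7E at 0.067 to 0.085 (468 genes). In the chromosome 1 windows it was 7E that departed from the lines, at 0.519 to 0.564, with 5F at -0.117 to 0.023 (86 genes). These medians place 7E beside the tagged lines on chromosome 8 and 5F beside them in the chromosome 1 windows. The 1083 tested genes of chromosome 8, the Y chromosome and these windows supplied 788 of the calls higher in 7E (23.6%) and 39 of the calls lower. Without these set-aside regions 2545 genes were higher and 3115 lower, and each gene list below is given without them where that changed its count by over 1.5 times. List counts are to be read against the shares over all genes tested, 20.4% higher and 19.4% lower. Among genes with at least 100 normalized counts these shares were 26% and 22.1%.

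**Figure D2:**
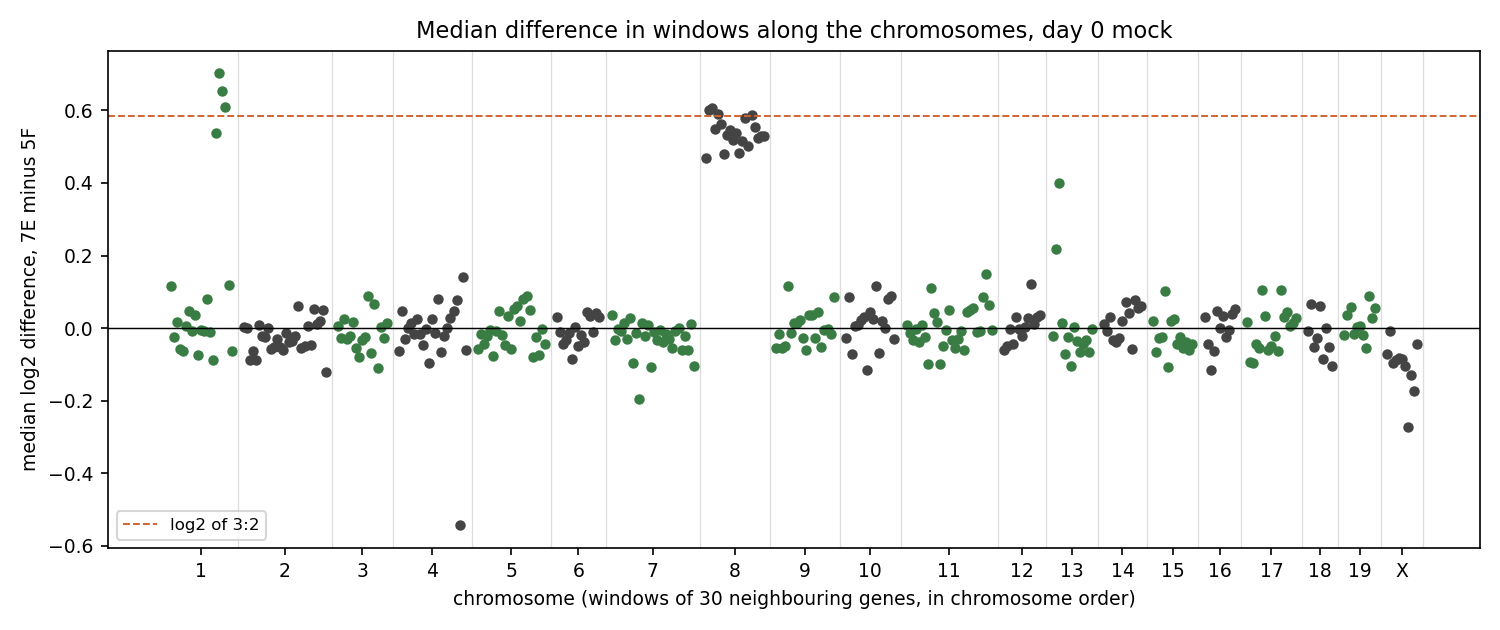
Median log2 difference, 7E minus 5F, of consecutive windows of 30 genes with at least 100 normalized counts along each chromosome, with a dashed line at 0.585 for a ratio of 3 to 2. All 20 windows of chromosome 8 and 4 of chromosome 1 lie between 0.47 and 0.702, and 3 windows elsewhere, on chromosomes 4, 13 and X, pass 0.25 in size.

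Windows elsewhere passed 0.25 in size only in short stretches, some of them clusters of related genes. In the chromosome 4 window from Gm13212 to Fbxo6, with a median of -0.54, 14 of 15 zinc finger genes were lower in 7E. Zfp978 had 934, 818.5 and 934 normalized counts in 5F and 239.7, 231 and 248 in 7E, a log2 difference of -1.90, while Zfp600 (-1.79) and Zfp981 (-1.51) followed and Zfp933 (-0.09) did not pass the test. Over all 364 tested genes with a Zfp symbol the median was -0.04, with 72 higher and 83 lower. The chromosome 13 window held the main histone cluster, with a median of 0.40, and the X window from Nono to Hmgn5 a median of -0.27 with 20 genes lower.

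Primitive endoderm genes were lower in 7E as a group. Primitive endoderm is the extraembryonic lineage that arises beside the epiblast, is specified by GATA6, GATA4 and SOX17 and lays down a basement membrane of laminin and collagen IV, and serum-grown mESC cultures can hold a few such cells. Of 17 list members tested, 16 were lower and none higher in 7E, 15 of them by at least 2-fold, and the median log2 difference was -2.38 against -0.001 over all genes tested. In bulk RNA, fewer cells of a type and less RNA per cell cannot be told apart. Without the members on chromosome 8 and in the chromosome 1 windows 13 of 14 were lower. The summed level of the list was 98276 to 101840 normalized counts in 5F and 39449 to 41719 in 7E.

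Its transcription factors came first. Gata4 had 1063, 1016 and 1071 normalized counts in 5F and 112, 77.2 and 97.4 in 7E (log2 -3.46 ± 0.093, edgeR adjusted p = 6.45e-19). Gata6 had 406, 410.1 and 396.5 in 5F and 41.8, 30.1 and 40.8 in 7E (log2 -3.43, adjusted p = 2.06e-16). Sox17 had 281, 291 and 347 in 5F and 28.6, 34.1 and 30.4 in 7E (log2 -3.30, adjusted p = 9.09e-15). All 3 factors were low in every 7E library and high in every 5F library. Sox7 (log2 -2.38) and Foxa2 (-1.17) were lower too, and Hnf4a, at 13.4, 25.3 and 27.2 in 5F and 12.2, 18.1 and 13.6 in 7E, was the member that did not pass the edgeR test (adjusted p = 0.161). Afp and Ttr, markers of the later visceral endoderm, had too few reads to be tested.

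Receptors and endocytic proteins of the lineage followed. Pdgfra, the receptor that marks primitive endoderm precursors, had 728, 674 and 642 normalized counts in 5F and 51, 57.2 and 63.9 in 7E (log2 -3.57 ± 0.10). Cubn, which with Amn forms the cubam receptor for protein uptake, had 2496, 2593 and 2302 in 5F and 256, 238 and 235 in 7E (log2 -3.34). Dab2, the adaptor of that receptor, had 988, 1017 and 1129 in 5F and 129.5, 129 and 128 in 7E (log2 -3.02). In each of them the 7E libraries lay within a narrow range far below 5F, and Amn differed by -2.57.

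Basement membrane genes were more abundant and differed less. Lama1, the laminin alpha 1 chain, had 20295, 20743 and 19657 normalized counts in 5F and 3989, 4221 and 3859 in 7E (log2 -2.33 ± 0.044, edgeR adjusted p = 5.68e-22). Col4a1 had 13571, 14302.5 and 14295 in 5F and 3477, 3509 and 3687 in 7E (log2 -1.98), although it lies on chromosome 8, whose other genes were mostly higher in 7E. Lamb1 differed by -1.69, Col4a2 by -1.94 and Sparc by -1.18. Lamc1, at the edge of the chromosome 1 windows, had 30246, 31716 and 30012 in 5F and 21625, 23049 and 21333 in 7E (log2 -0.48), the smallest difference of the called members.

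The clones were also placed against the tagged lines. On the centred per-length log2 scale Gata4 was 4.85 to 5.44 above the lines in 5F and 1.39 to 1.99 above them in 7E. Col4a1 was 3.47 to 4.55 above them in 5F and 1.47 to 2.56 in 7E, and Lama1 2.13 to 2.97 in 5F and -0.21 to 0.63 in 7E. Lamb1 (1.73 to 2.14) and Lamc1 (0.76 to 0.97) were also above the lines in 5F, and less so in 7E (0.03 to 0.45 and 0.27 to 0.49). Sparc was 0.35 to 0.71 above them in 5F and below them in 7E, at -0.83 to -0.47.

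**Figure D3:**
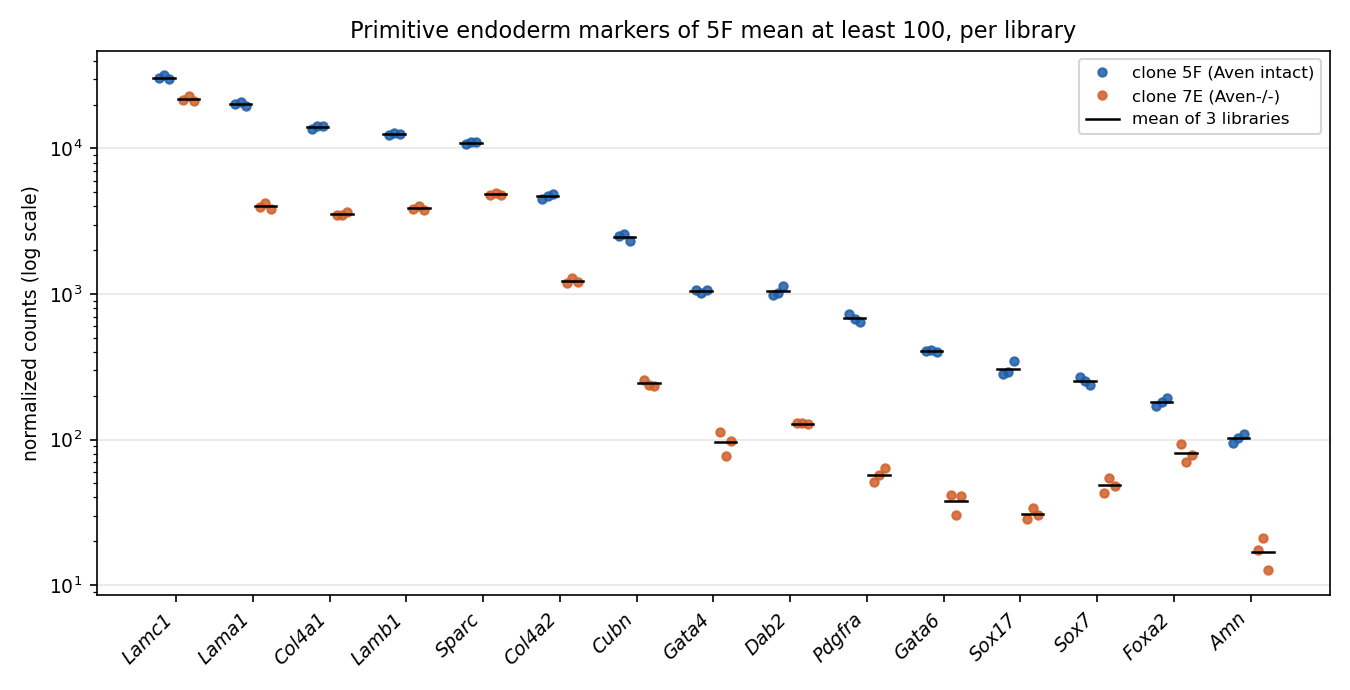
Normalized counts (log axis) of the primitive endoderm genes with a 5F mean of at least 100 in each day 0 mock library, ordered by that mean, with a line at the mean of 3 libraries. For every gene drawn the 7E libraries lie below the 5F libraries.

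Markers of the mESC state did not share this pattern. Pou5f1, the gene of OCT4, had 27824.5, 28613 and 28582 normalized counts in 5F and 23885.5, 25176.5 and 25237 in 7E (log2 -0.19), and Nanog (0.05, edgeR adjusted p = 0.339) did not pass the test. Of 22 naive pluripotency genes 12 were higher and 3 lower (median 0.15), or 7 higher and 5 lower with a median of -0.02 when scaled to ERCC RNA and 15 higher and 5 lower with the replicate block. Esrrb (0.41) and Sox2 (0.36) were higher, as was Zfp42 (0.81) on chromosome 8, whereas Dppa5a (-0.61) and Tdgf1 (-0.45) were lower. At day 4 the naive list held 7 higher and 9 lower.

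Formative genes, which rise as cells leave the naive state, included some that were much lower in 7E. Dnmt3b, a de novo DNA methyltransferase, had 12962, 13721.5 and 13407 normalized counts in 5F and 5297, 5210.2 and 5621 in 7E (log2 -1.31 ± 0.042, edgeR adjusted p = 2.05e-17). Dnmt3l, its catalytically inactive partner, had 8903, 8787.5 and 8946 in 5F and 3437, 3504 and 3533 in 7E (log2 -1.35), and Dnmt3l in 5F stood 1.62 to 3.01 above the tagged lines. The list as a whole was mixed, with 9 of 19 lower and 5 higher (median -0.12), or 12 and 2 under ERCC scaling. Among the higher were Spry4 (0.40) and Etv5 (0.19), a call that Etv5 lost under ERCC scaling (log2 0.024). At day 4, 12 members were lower and 3 higher (median -0.42).

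Other cell types the cultures could hold were checked by their markers. The study's methods give culture on gelatin-coated dishes and name no feeder cells. Fibroblast markers summed to 15394 to 17460 normalized counts in 5F and 16286 to 18416 in 7E, and 4 of 8 were lower and none higher, with 1 higher under the replicate block. Dcn, Lum and Postn had too few reads to be tested. Trophoblast markers summed to 5427 to 5920 in 5F and 4798 to 4862 in 7E. Of 8 tested 4 were lower and 1 higher (median -0.598), with Krt8 (-0.75) and Krt18 (-0.84) lower and Tfap2c (0.77) higher. At day 4 the trophoblast list ran the other way, with 6 of 9 higher and none lower. Neuroectoderm markers summed to 4303 to 4526 in 5F and 5533 to 5861 in 7E, with 3 of 7 higher and 3 lower, or 1 higher and 3 lower of 5 without the set-aside regions. At day 4, 4 were higher and 2 lower. Pax6 (1.07) and Tubb3 (0.71, on chromosome 8) were higher in 7E at day 0 and Ncam1 (-0.90) lower. Of 4 two-cell-stage genes tested 3 were lower, and the other 16 of that list were not tested.

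Of the 35 gene lists, the replication-dependent histones had the largest share of members called higher in 7E, 86.4%. Their mRNAs end in a stem-loop in place of a poly(A) tail, are made in S phase and are cleared from the 3′ end. Of 59 tested, 51 were higher and none lower, with log2 differences of 0.20 to 0.92 among those called and a median of 0.455, and 41 were higher and none lower when scaled to ERCC RNA (median 0.29). In 49 of the 59 the libraries of the clones did not overlap, against 7916 (48.6%) of all genes tested. They took 0.4555%, 0.4949% and 0.4507% of gene counts in 5F and 0.6113%, 0.7024% and 0.6637% in 7E.

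Each class of histone held genes called higher and none called lower. Of 6 linker histone H1 genes 5 were higher (median 0.61), of 12 H4 genes 12 (0.56), of 16 H2B genes 14 (0.43), of 14 H2A genes 11 (0.39) and of 11 H3 genes 9 (0.39). Hist1h1a had 18373, 19509 and 19349 normalized counts in 5F and 28784, 29475 and 30139 in 7E (log2 0.63 ± 0.039, edgeR adjusted p = 5.49e-12), with every 7E library above every 5F library. Hist1h1e (0.78), Hist1h1d (0.69), Hist1h1b (0.60) and Hist1h1c (0.54) were higher as well, and the testis form Hist1h1t (0.14) did not pass the test. At day 4 the difference was smaller, with 16 higher and 1 lower and a median of 0.10. Near-identical histone copies share reads, and only uniquely mapped reads were counted, so single copies are uncertain.

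Replication and mitosis genes were not higher along with the histones. Of 30 replication genes 4 were higher and 10 lower (median -0.05), or 2 and 9 of 27 without the set-aside regions and 1 and 26 of 30 under ERCC scaling, with Mcm5 (0.41, on chromosome 8) above and Ccne1 (-0.47), the S-phase cyclin E1, below. Of 25 mitosis genes 2 were higher and 10 lower (median -0.09), or none higher and 21 lower under ERCC scaling. Of 14 genes for factors that process or degrade histone mRNA 3 (21.4%) were higher and 2 (14.3%) lower, near the shares of all genes tested. The counts were 1 and 7 under ERCC scaling and 5 and 3 with the replicate block. The exonuclease Eri1 (0.61), on chromosome 8, was among the higher genes.

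**Figure D4:**
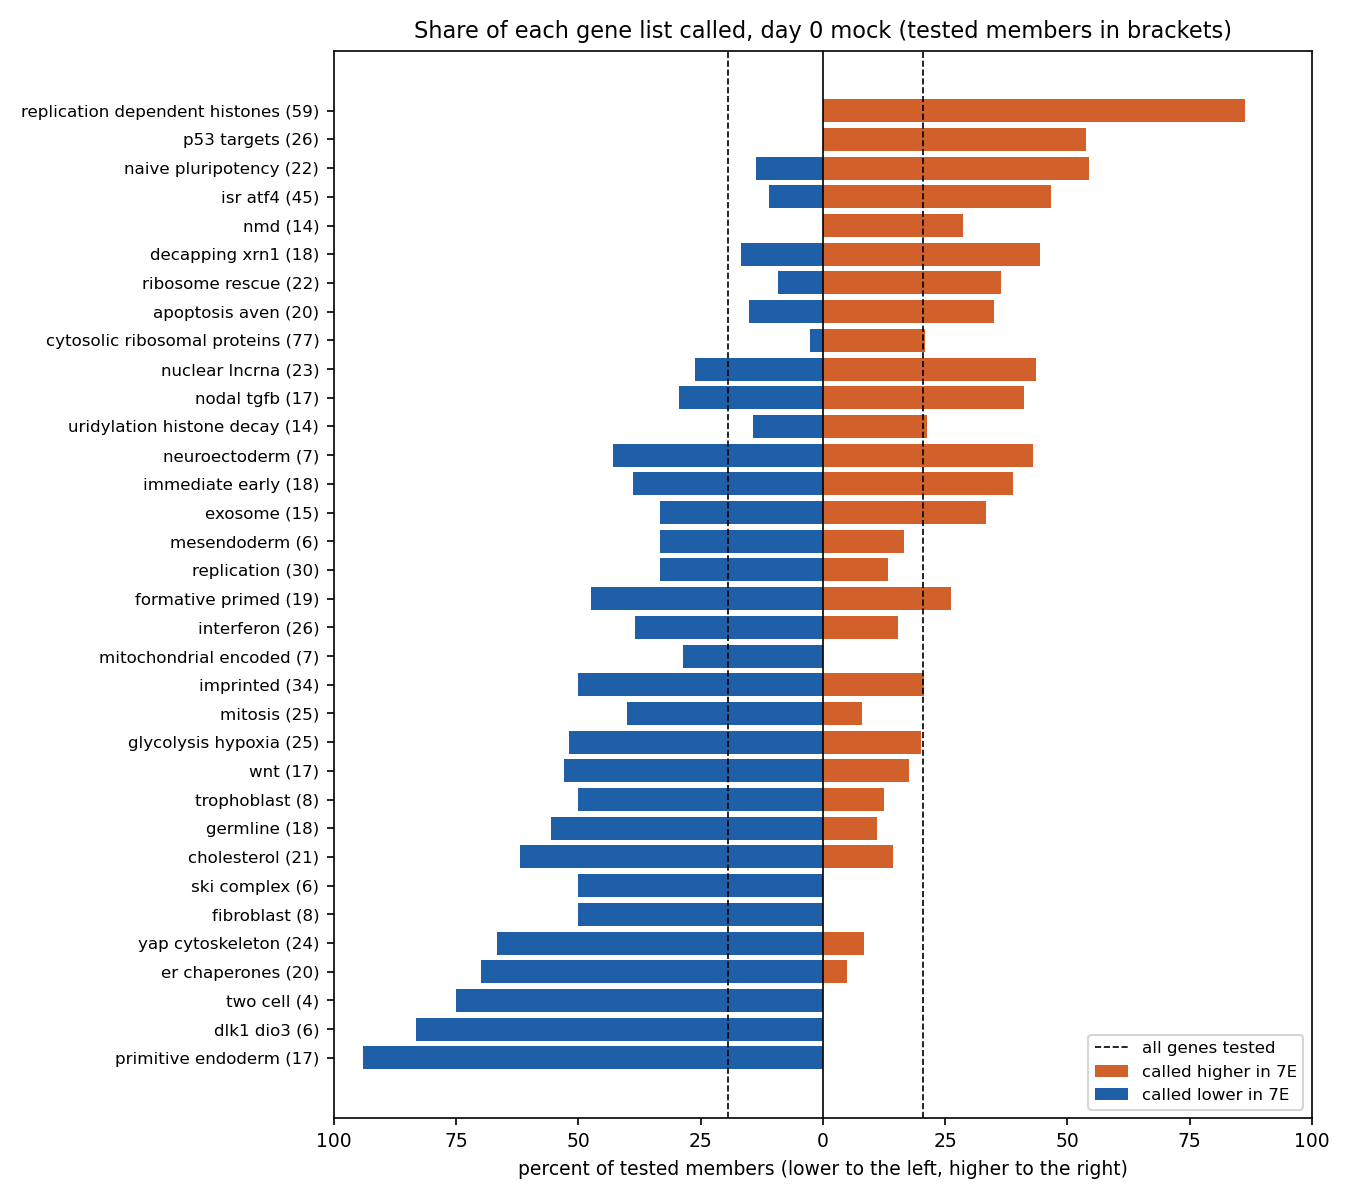
Percent of the tested members of each gene list (number in brackets) called lower (to the left) or higher (to the right) in 7E at day 0, with dashed lines at 19.4% and 20.4% for all genes tested. Replication-dependent histones have the largest share higher (86.4%) and primitive endoderm genes the largest share lower (94.1%), and the Y-linked list is not drawn.

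Stress pathway genes were more often higher than lower in 7E, by small amounts, but not when scaled to ERCC RNA. The p53 pathway answers DNA damage and ribosome stress, and of 26 of its genes 14 were higher and none lower (median 0.18). Perp (0.51), Cdkn1a (0.39), the cell-cycle inhibitor p21, and Mdm2 (0.26), the ubiquitin ligase of p53, were among them, and Trp53 itself was higher (0.35). Scaling to ERCC RNA left 4 of the list higher and 5 lower (median 0.02), and the replicate block 17 higher and 2 lower. At day 4 the same list held 21 higher and 1 lower, with a median of 0.41.

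ATF4, the transcription factor of the integrated stress response, is made when eIF2 is phosphorylated and drives amino acid synthesis and tRNA charging. Atf4 RNA was at 3731, 3664 and 3685 normalized counts in 5F and 4929, 4788 and 5005.5 in 7E (log2 0.41 ± 0.040, edgeR adjusted p = 1.14e-08), without overlap. Of 45 genes of the pathway 21 were higher and 5 lower (median 0.13), or 10 and 10 when scaled to ERCC RNA (median -0.04). The tRNA synthetases Aars (0.67, on chromosome 8) and Gars (0.26) were higher, Gars not under ERCC scaling (log2 0.096), while Cth (-0.84), an enzyme of cysteine synthesis, and the arginine transporter Slc7a3 (-0.36) were lower. Ifrd1, whose mRNA carries an upstream frame, did not pass the test (-0.05), though it was called lower under ERCC scaling (log2 -0.218). The day 4 count was 35 higher and 5 lower of 46, with a median of 0.48.

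Chaperones of the endoplasmic reticulum were lower in 7E. Of 20 tested 14 were lower and 1 higher (median -0.28), and 17 were lower under ERCC scaling. Hspa5, the chaperone BiP, had 33212, 30842.5 and 34328 normalized counts in 5F and 25290.1, 22980.1 and 26452 in 7E (log2 -0.40 ± 0.048, edgeR adjusted p = 4.04e-07). P4hb (-0.50), Pdia4 (-0.36) and Hsp90b1 (-0.26) were lower too. The exception was calnexin, Canx, at 32777, 30622 and 32848 in 5F and 43479.9, 41687 and 43689.8 in 7E (log2 0.42), and Calr, calreticulin (-0.04), did not pass the test but was lower under ERCC scaling (log2 -0.200).

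Cholesterol synthesis genes, targets of SREBP2, were also lower. Of 21 tested 13 were lower, Hmgcs1 (-0.38) among them, with a median of -0.21. The 3 members called higher, Msmo1 (0.19) and Mvd (0.27) included, all lay on chromosome 8 or in the chromosome 1 windows, and without those regions 13 of 18 were lower and none higher. No member was called higher under ERCC scaling. At day 4, 16 were lower and 3 higher (median -0.41).

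Targets of YAP and cytoskeletal genes were lower at day 0 and mostly higher at day 4. Of 24 tested 16 were lower and 2 higher at day 0 (median -0.43), and 3 were lower and 14 higher at day 4 (median 0.24). Vim, the intermediate filament vimentin, had 3667, 3686 and 3789 normalized counts in 5F and 2392, 2470.2 and 2398.5 in 7E (log2 -0.62), while S100a6 (0.72) and Actn1 (0.20) were higher, Actn1 not under ERCC scaling (log2 0.038). Wnt pathway genes leaned the same way at day 0, with 9 of 17 lower and 3 higher (median -0.37). Myc (-0.40) and Ccnd1 (-0.37) were among the lower, and Sfrp1 (0.77, on chromosome 8) and the receptor Fzd7 (0.47) among the higher.

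RNA decay factors other than SKI had counts that depended on the scaling. Of 18 decapping and XRN1 pathway genes 8 were higher and 3 lower (median 0.03), which became 4 and 3 of 14 without the set-aside regions and 4 higher and 6 lower under ERCC scaling. Edc4 (0.53), the decapping scaffold, lay on chromosome 8. Of 15 exosome genes 5 were higher and 5 lower (median 0.02), or 2 and 8 under ERCC scaling. Of 14 nonsense-mediated decay genes 4 were higher, led by the chromosome 8 helicase Upf1 (0.61), and none lower, but 2 of 12 were higher without the set-aside regions, 7 higher and 2 lower with the replicate block, and 2 higher and 6 lower under ERCC scaling. Of 22 ribosome rescue genes 8 were higher and 2 lower, against 5 and 9 under ERCC scaling and 10 and 4 with the replicate block, with Gcn1l1 (0.39), the collision sensor that activates the eIF2 kinase GCN2, and Abce1 (0.44, on chromosome 8), the ribosome recycling ATPase, higher.

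Cytosolic ribosomal protein genes differed by small amounts. Of 77 tested 16 (20.8%) were higher, against 20.4% of all genes tested, and 2 (2.6%) lower, against 19.4% (median 0.07). The counts were 35 and 6 with the replicate block, and the direction flipped to 4 higher and 23 lower under ERCC scaling (median -0.10). Of 20 apoptosis genes 7 were higher and 3 lower (median -0.015), which turned to 1 higher and 10 lower under ERCC scaling (median -0.18), with the checkpoint kinase Atr (0.49) higher and Mcl1 (-0.29), an anti-apoptotic BCL2 relative, lower. Atm (-0.11), the kinase that AVEN has been linked to, was lower in this fit and not by the DESeq2 Wald test (adjusted p = 0.0594).

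Imprinted genes were more often lower than higher. Of 34 tested 17 were lower and 7 higher (median -0.17), or 20 and 3 under ERCC scaling, among them Peg10 (-1.25), a retrotransposon-derived gene, and Slc38a4 (-0.87), with Grb10 (0.36) higher. In the Dlk1-Dio3 cluster 5 of 6 genes were lower, including the noncoding Meg3 (-0.32) and Rian (-0.47), which are made from the maternal copy, and the paternally expressed Dlk1 (-1.03). Glycolysis genes were lower in 13 of 25 cases and higher in 5, or 16 and 1 under ERCC scaling, with Pkm (-0.27) lower. Germline genes were lower in 10 of 18 and higher in 2, but lower in 4 and higher in 8 at day 4 (median 0.195). Interferon genes were lower in 10 of 26 and higher in 4, or 14 and none under ERCC scaling. Immediate early genes were lower in 7 of 18 and higher in 7, or 7 lower and 4 higher of 15 without the set-aside regions. The immediate early list held 5 higher and 8 lower under ERCC scaling, and 13 higher and 2 lower at day 4. Nodal pathway genes were higher in 7 of 17 and lower in 5, or 5 and 7 under ERCC scaling. Mesendoderm markers were higher in 1 of 6 and lower in 2, or none and 4 under ERCC scaling, with 2 of 7 in each direction at day 4 (median 0.48). Mitochondrially encoded genes were lower in 2 of 7 (28.6%, against 19.4% of all genes tested) and higher in none. The counts were 2 higher and 3 lower with the replicate block and 4 lower under ERCC scaling.

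Single genes were also taken by the size of their difference. Of the 12 protein-coding genes with the largest increases, 7 lay on chromosome 8, among them Hhip (2.49), a decoy receptor for Hedgehog ligands, and Sox1 (2.19). Fgf1 had 45.2, 51.4 and 35.6 normalized counts in 5F and 299, 287 and 259.8 in 7E (log2 2.66 ± 0.14, edgeR adjusted p = 1.35e-13). Sox21, a SOXB2 transcription factor, had 423, 413.5 and 387 in 5F and 1548, 1781 and 1622 in 7E (log2 2.02). Slc6a14, an amino acid transporter on the X chromosome, had 104, 75.8 and 105 in 5F and 491, 419 and 455 in 7E (log2 2.28). These 3 genes were low in 5F and several-fold higher in all 7E libraries.

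Several genes were close to lost in 7E. Mid1, an X-linked ubiquitin ligase, had 208, 246 and 205 normalized counts in 5F and 3.1, 10 and 9.4 in 7E (log2 -4.85 ± 0.22, edgeR adjusted p = 1.96e-14). Fmr1nb, also X-linked, had 252, 266 and 267 in 5F and 14.3, 15 and 13.6 in 7E. Nostrin, a regulator of nitric oxide synthase traffic, had 229, 221 and 269.9 in 5F and 10.2, 13 and 16.8 in 7E. With Nxf7 (-3.59), an X-linked relative of the mRNA export receptor, they were the genes other than Aven, Y-linked and primitive endoderm genes among the 12 largest decreases.

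Abundant genes differed less. Gsr, glutathione reductase on chromosome 8, had 4215, 4421 and 4482 normalized counts in 5F and 10113, 10096.5 and 10406 in 7E (log2 1.22 ± 0.041). Sqstm1, the autophagy receptor p62, had 4209, 4529.7 and 4639 in 5F and 8194, 8636 and 8645 in 7E (log2 0.93). Klhl13, an X-linked adaptor of a CUL3 ubiquitin ligase, had 10288, 9913 and 10775 in 5F and 2425, 2314 and 2694 in 7E (log2 -2.06), and it too stood above the tagged lines, by 4.27 to 4.94 in 5F and 2.20 to 2.88 in 7E. Prrc2c (0.90) and Slc19a2 (0.89) were higher and lay in the chromosome 1 windows. Of the mRNAs the study used to show binding preferences, Sfpq was higher (0.25) and Trim28 (-0.27) and Pim3 (-0.24) were lower, Sfpq not under ERCC scaling (log2 0.085).

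Nuclear noncoding RNAs went in both directions. Neat1, the RNA that builds paraspeckles, had 1034.5, 1021 and 882 normalized counts in 5F and 3182, 2979.7 and 2381 in 7E (log2 1.54 ± 0.078, edgeR adjusted p = 1.34e-13). Its neighbour Malat1 had 86064, 81249 and 78159.8 in 5F and 62606, 60204 and 53637 in 7E (log2 -0.48). The pair thus differed in opposite directions, each without overlap between the clones. Lncenc1, a noncoding RNA of naive mESCs, had 5689.7, 5423 and 5432 in 5F and 2226, 2233.5 and 2182 in 7E (log2 -1.32), and Platr12 (1.33) was higher. Gas5, a host of small nucleolar RNAs, was higher (0.69) and lay in the chromosome 1 windows.

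The clones were compared again in mock libraries of day 4, after 4 days of 4OHT in both. Of 16433 genes tested there, 6525 (39.7%) were called, with 3374 (20.5%) higher and 3151 (19.2%) lower. Of the 6487 day 0 calls 6440 were tested again, and 5601 (87.0%) had the same sign, 3879 were called in the same direction and 227 in the opposite one. The day 4 libraries are separate from those of day 0 but come from the same clones. Chromosome 8 (median 0.53) and the chromosome 1 windows (0.62) were close to their day 0 values, and primitive endoderm genes were again lower, 16 of 17 with a median of -1.75. Aven differed by -4.32 and Skiv2l by -3.41 on the log2 scale. The ratio of gene counts to ERCC counts was 324.0, 352.6 and 347.7 in 5F and 152.6, 151.3 and 155.9 in 7E, a difference of -55.1% at day 4 against -8.50% at day 0. The day 4 log2 differences were scaled by median-ratio size factors over genes, so they do not carry this difference per well.

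**Figure D5:**
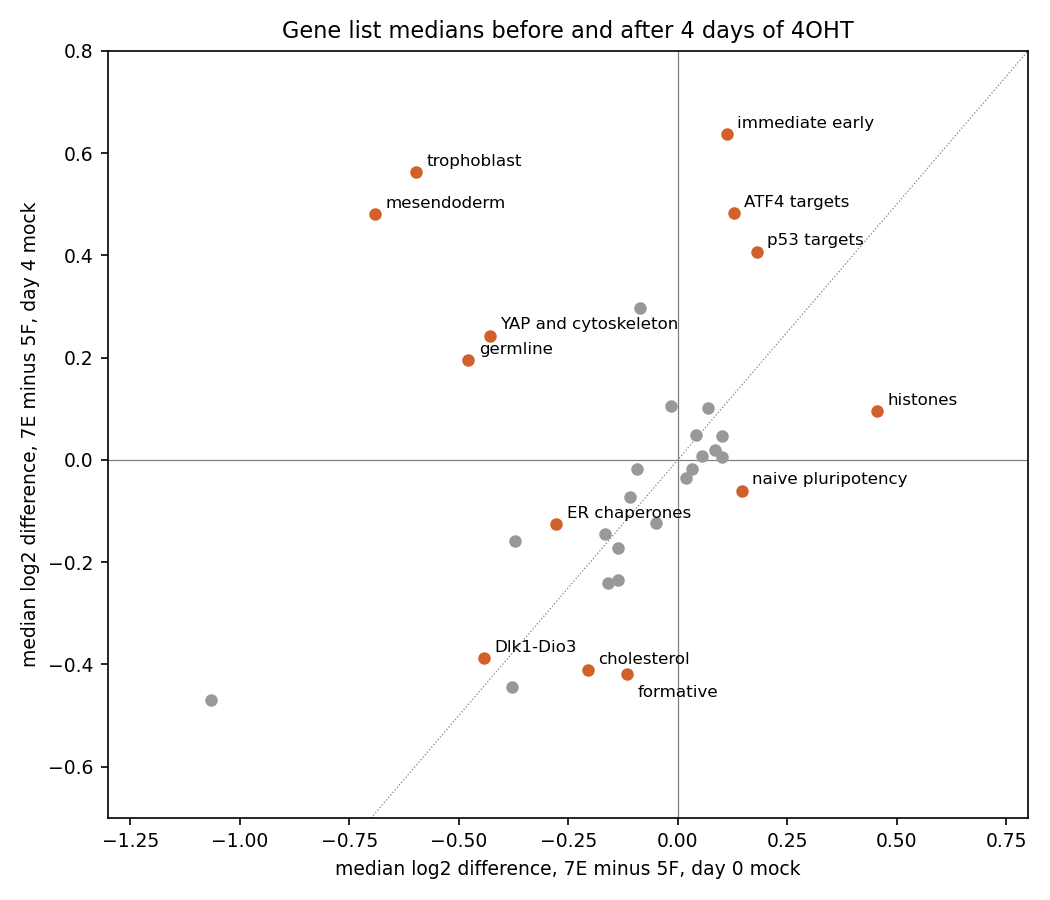
Median log2 difference, 7E minus 5F, of each gene list at day 0 (horizontal axis) and day 4 (vertical axis), with equal values on the dotted line. Histones are higher at day 0 (0.455) than at day 4 (0.10), the p53 and ATF4 lists are higher at day 4 (0.41 and 0.48), and primitive endoderm genes (-2.38 and -1.75) and the Y-linked list lie outside the range and are not drawn.

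Binding of AVEN was set beside the differences in level. CRAC maps where a tagged protein is crosslinked to RNA, and the authors' table gives for each mRNA the counts of AVEN relative to the summed counts of MTR4, SKIV2L and XRN1. The median relative AVEN binding was 0.298 for 2114 mRNAs called higher in 7E, 0.293 for 1501 called lower and 0.296 for 3616 not called. Across these 7231 mRNAs the log2 difference and AVEN binding had a Spearman correlation of -0.0029, which is a description across genes of the same libraries. Between 4 groups of equal size ranked by AVEN binding 28.5% to 30.5% of mRNAs were higher and 19.9% to 22.0% lower. Relative SKIV2L binding was 0.259 for mRNAs higher in 7E and 0.291 for those lower, and the share lower was 17.7%, 18.6%, 22.4% and 24.3% from the least to the most bound of 4 such groups. The Spearman correlation with the log2 difference was -0.06 for SKIV2L binding and 0.11 for transcript length. Median transcript length was 3439 nt for mRNAs called higher and 2787 nt for those called lower, and its part was not tested. Replication-dependent histones had medians of 0.436 for AVEN and 0.534 for SKIV2L (50 mRNAs).

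Basement membrane mRNAs were high in relative AVEN binding. Col4a1 was at 2.96, Lama1 at 2.54, Col4a2 at 2.45 and Lamb1 at 1.69, in a table of 7240 mRNAs with a median of 0.295 and 45 above 1. Their relative SKIV2L binding was high as well, at 0.702, 0.53, 0.633 and 0.699 in the same order, against a median of 0.267. The AVEN data and the 3 other proteins' data come from different tagged lines, so levels of these mRNAs in each line enter the ratio. At 3.35 to 7.12 RPKM for Col4a1 and 9.98 to 17.8 for Lama1, the levels varied between the 3 lines for which they were given, and their part in the binding values was not tested.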

How the data were processed

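The authors mapped reads with STAR to GRCm38 (mm10) joined to the ERCC sequences and deposited raw counts of uniquely mapped reads per Gencode M16 gene. They also deposited, per mRNA, CRAC binding as a ratio of pooled counts, RPKM values of 3 tagged lines and transcript lengths. DESeq2 is named in the submitters' processing notes, and columns of the authors' own fits were not used. Counts of the 6 libraries were scaled by median-ratio size factors, filtered with filterByExpr and tested with edgeR 4.0.16 (glmQLFit and glmQLFTest, R 4.3.3), and a gene was called at a Benjamini-Hochberg adjusted p under 0.05. Libraries with the same replicate number in the labels deviated alike: deviations from the clone means correlated at 0.216 to 0.433 for the same number and at -0.303 to 0.0928 otherwise. Deviations from a clone mean cancel within the clone, so these correlations depend on each other. The fit as reported had clone as its only term, so variation shared by replicate number stayed in its error. The replicate block was run as an alternative. Symbols and positions matched 53275 of 53380 genes. On simulated counts of 16299 genes for this comparison, 70.0% of genes changed by 0.5 on the log2 scale and 98.0% of those changed by 2 were recovered. Of 16099 unchanged genes 10 were called, 5.41% of all calls. At each size 50 genes were changed, far fewer than were called in the data, and libraries were drawn without pairing. Recovery in the data themselves may therefore differ.

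Members and gene lists were chosen with earlier results of these data known. Genes were named by a rule: the SKI genes, the 12 largest differences in each direction among protein-coding genes of at least 100 normalized counts and the 5 largest of at least 5000, the 2 most abundant called members of each list in each direction, 3 noncoding genes in each direction, genes the study discusses and the neighbours of the edited loci. Other genes were named after their values were seen. Alternatives were TMM or ERCC scaling (27 sequences of over 50 counts), other filters, DESeq2 1.42.0, limma 3.58.1 voom, all 12 mock libraries, the replicate block and each library left out. The count without chromosome 8, the Y chromosome and the chromosome 1 windows was chosen after seeing the data. Some genes are not reported here.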

Additional observations from a re-analysis of the deposited data

How the results depend on the processing

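The counts of 6487 genes called and 786 called with at least 2-fold held within 1.5 times under most settings: 6487 and 6431 called with TMM scaling and limma-voom, 6151 at 1 CPM or more in 3 libraries, 5627 with the DESeq2 Wald test, 6231 with all 12 mock libraries in the fit and 5463 to 6583 with a library left out. At 1 CPM or more in 3 libraries 492 genes (140 higher and 352 lower) were at least 2-fold apart, and glmTreat, which tests against 2-fold itself, called 194 (33 and 161). With the replicate block 8092 genes were called, 4108 higher and 3984 lower, and 798 at 2-fold, and beyond Wdr61, Hbs1l and Ehmt2 the block changed no call of a named gene, but it moved 11 counts of gene lists by over 1.5 times. ERCC scaling called 7909 genes, of which 20.4% were higher against 51.4% in the analysis as reported, and at day 4, where gene counts per ERCC count differed by -55.1%, 15548 (73 higher and 15475 lower). It moved the chromosome 8 median to 0.377, that of the chromosome 1 windows to 0.47 and that of all other genes from -0.011 to -0.176, and the AVEN binding difference between genes called higher and lower from 0.0048 to -0.0074. With a library left out these medians were 0.529 to 0.551 (chromosome 8) and 0.609 to 0.65 (chromosome 1 windows). Aven (-4.12 to -3.79) and Skiv2l (-2.26 to -2.05) were called under every alternative run.

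Under ERCC scaling the log2 difference changed sign for Focad (-0.078), Lsm14a (-0.055), Exosc10 (-0.052), Adar (-0.004), Cenpf (-0.011), Mki67 (-0.048), Rrm1 (-0.031), Npat (-0.057), Rpl18 (-0.008), Fmn1 (-0.134), Tnxb (-0.130) and Zbtb12 (-0.123). Tnxb did so with limma-voom (-0.008), and with a library left out Katnbl1 ranged from -0.07 to 0.031, Zbtb12 from -0.016 to 0.077, Fmn1 from -0.037 to 0.108, Scg5 from -0.309 to 0.126 and Tnxb from -0.106 to 0.258, none of which was called. Of 2458 values of named genes under alternatives 2315 kept direction and call, 108 lost the call, 13 gained one and 22 changed sign, and the causes were not tested. Depth limits genes of few reads, such as the unlisted genes below the filter and Y-linked genes in 7E.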
